A study of Mus musculus with 105 samples.

Results

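Resting mouse CD4+ T cells were given triptolide, which stops RNA polymerase II from starting new transcripts, together with cycloheximide, which stops ribosomes while they elongate. The mRNA left after 3 h was compared with the mRNA at 0 h. Losses seen in this comparison went on while ribosomes were blocked. The comparison used 6 libraries, which are 2 of the 35 groups of 3 libraries in the series, 3 labelled resting, triptolide with cycloheximide, 3 h, and 3 labelled resting, triptolide, 0 h. They were chosen by their labels and by no measured value.

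All cells came from spleen and lymph nodes of 6-week-old female C57BL/6J mice and were purified by removing the cells that are not CD4+ T cells. Triptolide was used at 25 µM and cycloheximide at 100 µg/ml. Other groups given below as side values were triptolide alone for 3 h, triptolide with harringtonine at 2 µg/ml for 3 h, triptolide with cycloheximide for 1 h, untreated cells at 0 and 3 h, cycloheximide alone for 3 h, and cells activated with beads that carry antibodies to CD3 and CD28 and then treated in the same way. Each group had 3 libraries, labelled biological replicates 2, 3 and 4, and no label ties a number to a mouse. RNA was taken from equal numbers of cells, and each library holds ERCC spike-ins, synthetic RNAs added as a reference. The series asks which mRNA losses need translation and which do not.

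Cytoplasmic mRNA is usually degraded after its poly(A) tail has been shortened, by removal of the cap and digestion from the 5′ end or by the exosome from the 3′ end. Part of this decay is coupled to ribosomes, as in nonsense-mediated decay and in decay that follows slow codons. Decay can also be started by proteins that bind the 3′ untranslated region (UTR), with or without a need for translation. Among them are the Zfp36 family on AU-rich elements and Regnase-1 and Roquin on stem-loops. These proteins are known regulators of cytokine and immediate early mRNAs in T cells. Cycloheximide freezes ribosomes on the message, while harringtonine blocks the first steps after initiation and lets elongating ribosomes run off.

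The 6 libraries held 1859643 to 3017086 exon counts, against a median of 2135827 over all libraries of the series, and 112535 to 300362 ERCC counts. Reads that were not assigned to a gene made up 87.0 to 89.0% of the 0 h libraries and 90.0 to 94.1% of the 3 h libraries, so the groups did not overlap in this share. The cells carried Cd4, their label's marker, at 305 to 352 CPM (exon counts scaled to a common library size) at 0 h and 430 to 443 CPM at 3 h. Of the CD8 markers, Cd8a was at or under 1.31 CPM. Cd8b1 was at 7.53 to 10.1 CPM at 0 h and 6.46 to 8.01 CPM at 3 h. The summed level of 11 T cell markers was 3433 to 3965 CPM at 0 h and 3213 to 3571 CPM at 3 h. Of these 11, 2 fell and 2 rose on the relative scale used below, beside 19.2% and 16.1% of all genes. Without replicate 2, 0 of the 11 rose. Cd4 was among the rises, and Cd28 and Cd2 fell, with log2 changes of -1.84 and -1.20. Of the 10 myeloid markers, whose summed level was 34.1 to 38.9 CPM at 0 h and 50.5 to 57.2 CPM at 3 h, Cd14 had no count at 3 h. B cell markers summed to 157 to 834 CPM and 169 to 878 CPM, 7 natural killer cell markers to 21.8 to 34.4 and 17.2 to 28.6 CPM with Ncr1 at 0 at 3 h, and 6 red cell markers to 1.34 to 5.67 and 2.80 to 6.77 CPM. The part of these other cells in the results was not tested. The 0 h triptolide libraries and the untreated 0 h libraries differed in 0 of 10741 genes on either scale used below (edgeR's quasi-likelihood test, adjusted p under 0.05), with 94 genes at an unadjusted p under 0.05 on the relative scale and 61 on the spike-scaled one.

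After 3 h of triptolide with cycloheximide more exon signal than intron signal was left. Exon counts per ERCC count were 21.9, 16.1 and 18.5 at 0 h in replicates 2, 3 and 4 and 15.6, 8.96 and 11.4 at 3 h. Every 3 h library lay below every 0 h library, and the 3 h level was 62.4% of the 0 h level (11.97 ± 3.35 against 18.83 ± 2.91, SD, n = 3 each, exact permutation test, two-sided p = 0.1, the smallest that 3 against 3 libraries allow). Taken by replicate number the share left was 71.1, 55.6 and 61.5%. Introns are spliced out and degraded soon after transcription, so their counts serve as a reading of the transcription block. Intron counts were also lower at 3 h in groups without triptolide, as given below. Intron counts per ERCC count went from 15.0, 14.4 and 12.6 to 4.64, 3.41 and 5.64, which was 32.0% of the 0 h level (exact permutation p = 0.1). Gene by gene, introns fell in 7807 of 10750 genes (72.6%) and rose in 266 (2.47%), with a median of 13.2% left. In bulk RNA, fewer cells of a type and less RNA per cell cannot be told apart.

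**Figure D1:**
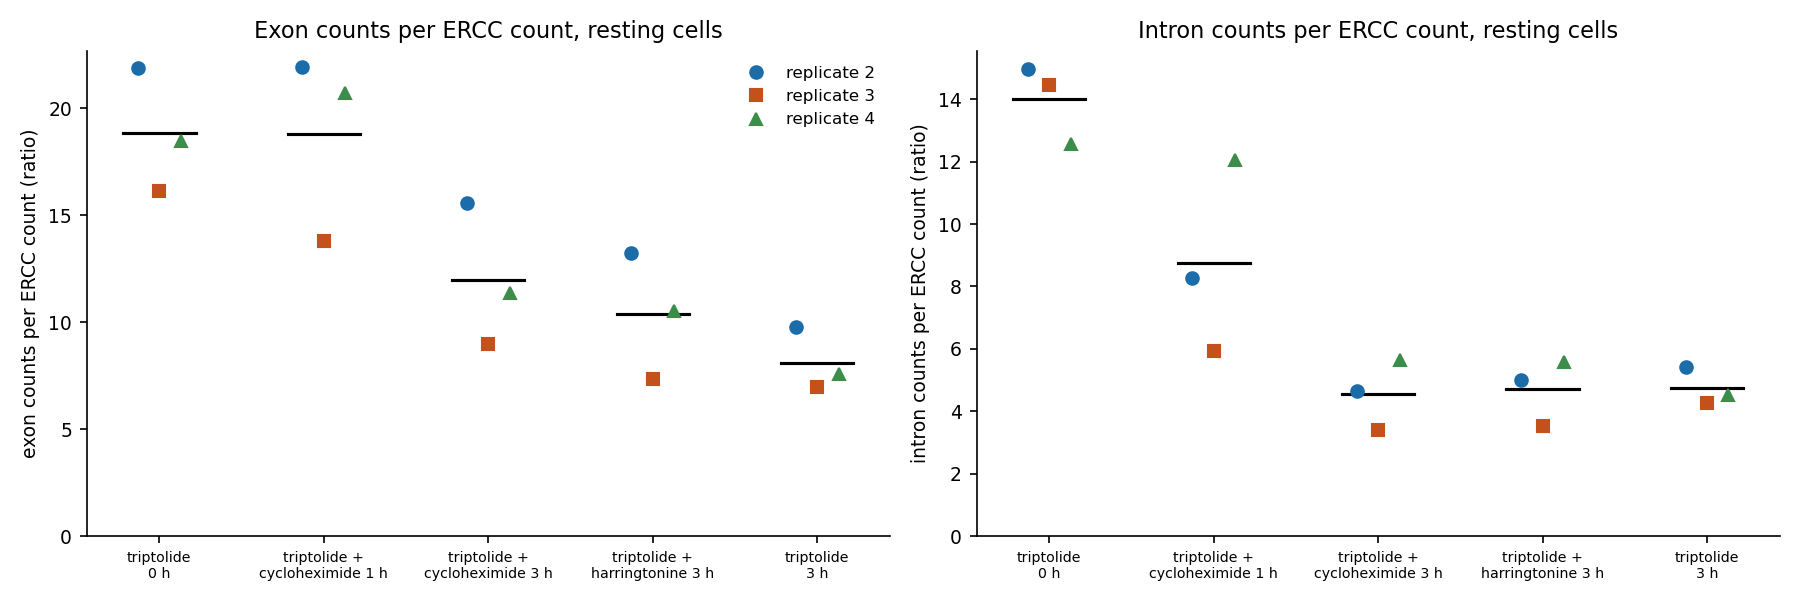
Exon counts (left) and intron counts (right) per ERCC count, as a ratio, in each library of the resting groups named under the axis. Points are libraries, marked by replicate number, and bars are group means; exon counts with triptolide and cycloheximide at 3 h are at 8.96 to 15.6, below the 0 h libraries at 16.1 to 21.9.

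The other triptolide groups, which share the 0 h libraries, stood on both sides of this level. Exon counts per ERCC count were at 98.7% of the 0 h level after 1 h of triptolide with cycloheximide, at 43.0% after 3 h of triptolide alone and at 53.9% after 3 h of triptolide with harringtonine. At 3 h the level with cycloheximide was 145% of that with triptolide alone (exact permutation p = 0.2) and 116% of that with harringtonine (p = 0.5, exact). These tests ignore the replicate numbers. In replicates 2, 3 and 4 the level was 15.6, 8.96 and 11.4 with cycloheximide, 9.76, 6.99 and 7.59 with triptolide alone and 13.2, 7.35 and 10.5 with harringtonine, so that it was higher with cycloheximide in 3 of 3 same-numbered pairs in both comparisons. Intron counts per ERCC count were at 33.8% with triptolide alone, close to the 32.0% with cycloheximide (94.8% of the former, exact permutation p = 0.9). Cycloheximide alone for 3 h left exon counts per ERCC count at 155% of untreated 0 h cells, and untreated cells kept for 3 h were at 82.7%. Intron counts per ERCC count in these 3 h groups were at 68.8% with cycloheximide alone (exact permutation p = 0.1) and 76.6% in untreated cells (exact permutation p = 0.4).

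Among single genes, lists of signalling and regulatory proteins had the least mRNA left, and, cell type markers aside, those of ribosomal proteins and tRNA synthetases the most. Of 10741 genes tested, 4757 (44.3%) fell per ERCC molecule and 166 (1.55%) rose, and the median gene was left at 59.3% of its 0 h level. Relative to the typical mRNA, which sets the zero of that scale, 2067 genes (19.2%) fell and 1726 (16.1%) rose. All 2067 fell on both scales. The median log2 change over all genes was 0.05 on the relative scale and -0.75 per ERCC molecule, so the second call is no separate support. The exon CPM of 1953 of the 2067 did not overlap between the groups, and over all genes 2568 (23.9%) lay lower without overlap. Below, fell and rose without a scale mean the relative one, and the percent left is always per ERCC molecule. The split of calls depends on the scaling: it was 1144 higher and 2541 lower with RLE factors, which move the median of all genes from 0.05 to -0.11 on the log2 scale, 1156 and 2499 with library size alone, 1059 and 2451 with DESeq2, and 1189 and 1088 when mitochondrially encoded mRNAs set the scale, which moves the median to 0.22. With the replicate number as a block 2614 genes rose and 2686 fell; without replicate 2 or 3, 1039 and 1003 rose, and per ERCC molecule 3040 fell without replicate 3.

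The largest falls were in mRNAs for a mixed set of proteins, from a homing receptor to mitochondrial import and transcription. Ccr7, the chemokine receptor that brings naive T cells into lymph nodes, was at 1091, 1215 and 1016 CPM at 0 h and at 128, 67.7 and 120.0 CPM at 3 h. All 3 libraries at 3 h were far below those at 0 h, a log2 change of -3.40 (SE 0.30, adjusted p = 9.02e-16, edgeR's quasi-likelihood test), with 5.74% of the mRNA left. Ccr7 (chr11:99144196-99155077, 3 exons) is on mm10, as are all positions given here. Its intron counts fell too, by 5.45 on the log2 scale. Btg2, an antiproliferative protein that recruits the CCR4-NOT deadenylase, went from 239.7, 384 and 287 CPM to 22.1, 22.02 and 48.0 CPM. Its log2 change was -3.33 (SE 0.26, adjusted p = 1.16e-17), with 5.72% left, and the groups did not overlap (chr1:134075170-134079120, 2 exons). Tuba1a, an alpha tubulin, went from 179.7, 236 and 225 CPM to 27.7, 11.6 and 22.2 CPM, a log2 change of -3.39 (SE 0.61, adjusted p = 6.08e-06). Arrdc3, an arrestin-like adaptor, went from 144, 260 and 111 CPM to 11.5, 13.6 and 25.9 CPM, a log2 change of -3.37 (SE 0.38). 

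The furthest falls were in low mRNAs. Cfl2, which encodes an actin-severing cofilin, had 179 counts at 0 h and 3 at 3 h (10.7 to 34.4 CPM against 0 to 0.923 CPM). The ratio of its levels was 0.0227, with a 95% interval of 0.00463 to 0.0674 that covers counting error only. Zbtb26, a zinc finger protein, had 121 counts and 3 counts, a ratio of 0.0336 (0.00682 to 0.10). These are the largest losses among the genes with at least 10 CPM at 0 h, and both rest on very few counts at 3 h. Gpr18, a G protein-coupled receptor of lymphocytes, was left at 3.47%, B3galt4, a ganglioside galactosyltransferase, at 3.87%, and Tnfrsf12a, the TWEAK receptor, at 4.77%. Chchd4, which imports proteins into the mitochondrial intermembrane space, was left at 4.75%, Zfp213 at 4.96%, Med18, a Mediator subunit, at 5.11%, Ankrd49 at 5.30%, and Slc31a2, a copper transporter, at 5.62%. These 10 genes had log2 changes of -5.29 to -3.36. The 14 were chosen among genes whose groups did not overlap. All 14 kept their call under every alternative tried for this comparison. Side by side, and sharing the 0 h libraries, the percent left after triptolide alone was 2.57 for Ccr7, 3.72 for Btg2, 1.65 for Tuba1a and 5.24 for Arrdc3, and it was 6.28 for Cfl2, 7.35 for Zbtb26 and 4.77 for Gpr18.

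**Figure D2:**
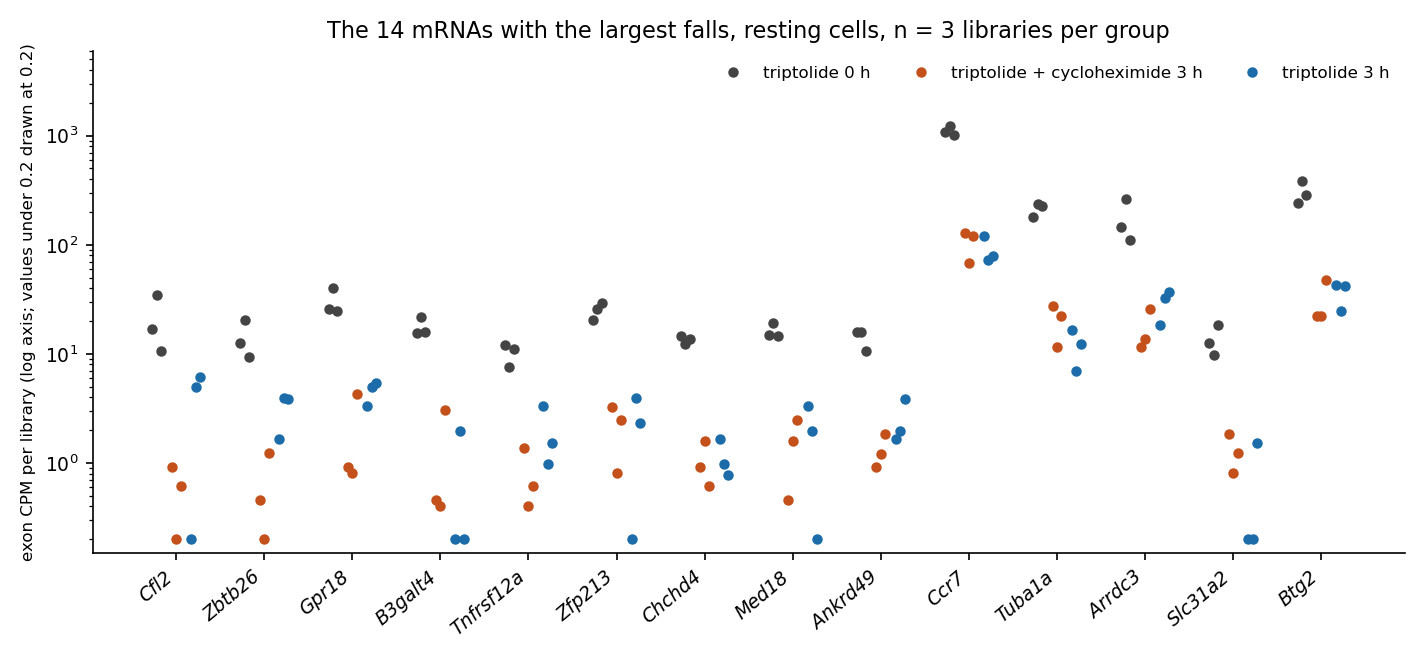
Exon CPM on a log axis, with lower values drawn at 0.2, in each library at 0 h with triptolide (grey), at 3 h with triptolide and cycloheximide (orange) and at 3 h with triptolide alone (blue), for the 14 genes with the largest falls. For each gene all 3 libraries with cycloheximide lie below all 3 at 0 h, for Ccr7 at 67.7 to 128 against 1016 to 1215.

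Regulators of transcription and signalling were among the groups with least mRNA left. Over all genes 19.2% fell and 16.1% rose. Of 38 immediate early genes, which respond within minutes to stimulation, 30 fell and 0 rose, with a median of 17.97% left against 59.3% over all genes; without replicate 3, 21 fell. Klf6, a zinc finger transcription factor, was at 766, 987 and 487 CPM at 0 h and at 119, 76.1 and 138 CPM at 3 h, so that no library overlapped and 8.80% was left. Jund, an AP-1 subunit, spread widely at 3 h (260, 56.5 and 95.4 CPM against 575, 273 and 309), with a log2 change of -1.49 (SE 0.47). Mafk, a small Maf protein, was left at 12.8%. Among 34 genes of naive T cell homing and quiescence, 17 fell and 1 rose (5 with the replicate block), with a median of 37.8% left. Beside Ccr7, Klf2, which drives the exit programme of naive cells, was left at 7.16%, and S1pr1, the sphingosine receptor that Klf2 induces, at 8.13%; both were singled out after their values were seen. Ets1, the most abundant of the list, did not pass on the relative scale (2848, 2846 and 3533 CPM against 3049, 3157 and 3395) and was left at 59.9%.

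Feedback inhibitors of cytokine and NF-kB signalling also fell, beside 19.2% of all genes that fell and 16.1% that rose. Of 11 SOCS inhibitors and Pim kinases, 7 fell and 0 rose, with a median of 19.4% left. Socs6, an adaptor that brings signalling proteins to ubiquitin ligases, went from 63.2, 64.5 and 51.9 CPM to 5.54, 6.01 and 8.002 CPM (log2 change -3.21, SE 0.25, adjusted p = 1.36e-17), without overlap. Pim1, a serine/threonine kinase induced by cytokines, was left at 13.2%. Of 19 NF-kB subunits and feedback genes, 6 fell and 2 rose, and 0 rose without replicate 2. Those that fell included Tnfaip3, the ubiquitin-editing enzyme A20, at 1106, 1118 and 934 CPM at 0 h and 185, 120.1 and 264 CPM at 3 h, and Nfkbia, the inhibitor IkBα, at 196, 334 and 209.5 CPM and then 59.5, 35.2 and 51.7 CPM. Both pairs of groups were apart, and 10.5% and 12.1% of these mRNAs were left. The subunit Nfkb1 did not pass the test and was left at 77.3%.

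Genes of survival, p53 and cytokine reception fell in part, beside the 19.2% of all genes that fell. Of 13 BCL2 family genes, 6 fell and 0 rose. Mcl1, an antiapoptotic member with a short-lived protein, went from 698, 634 and 519 CPM to 113, 67.3 and 108 CPM (log2 change -2.68, SE 0.23, adjusted p = 7.33e-16), with 9.25% left. Of 20 genes of p53 and its short-lived targets, 13 fell and 0 rose, with a median of 22.7% left, and 8 fell when mitochondrially encoded mRNAs set the scale; Sesn1 was left at 11.96% and Ccng2 at 10.8%. Of 25 cytokine receptor subunits, 13 fell and 0 rose, with a median of 33.2% left. Both chains of the interferon gamma receptor fell, but to unequal levels: Ifngr2 went from 149.8, 103 and 132 CPM to 18.5, 13.6 and 20.3 CPM, with 7.75% left, while Ifngr1 went from 839.6, 778 and 764 CPM to 515, 424 and 404 CPM, with 33.2% left. Of 9 activation markers, 6 fell, with a median of 16.9% left, among them Cd69 (10.7% left), Irf4 (13.7%) and Tnfrsf4 (16.9%). The activation markers summed to 511 to 639 CPM at 0 h and 194 to 248 CPM at 3 h.

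The mRNAs of proteins that themselves start mRNA decay were among the losses, beside 19.2% of all genes that fell and 16.1% that rose. The lists of decay machinery and of nonsense-mediated decay factors held both falls and rises. Of 21 AU-rich, stem-loop and poly(A) binding decay regulators, 10 fell and 1 rose, with a median of 35.9% left, and 6 fell when mitochondrially encoded mRNAs set the scale. Btg1, a relative of Btg2, went from 894, 1136 and 481 CPM to 294, 116 and 173 CPM (14.7% left). The 3 Zfp36 family members, which bind AU-rich elements, were left at 11.95% (Zfp36), 10.4% (Zfp36l1) and 17.8% (Zfp36l2), and Rc3h1, which encodes Roquin-1, at 33.5%. Zc3h12a, which encodes Regnase-1, was the list's rise, with a log2 change of 1.68 and 179% left per ERCC molecule, where it did not pass the test (adjusted p = 0.18); with coding-sequence counts its relative change was -1.24, the other direction. Zfp36, Zfp36l1, Zfp36l2, Rc3h1 and Zc3h12a were singled out after their values were seen. Pum2, a binder of Pumilio elements, did not pass (50.7% left). Of 46 genes of the deadenylation, decapping and exonuclease machinery, 16 fell and 9 rose, and 9 fell without replicate 3, 4 rose without replicate 2, and 4 fell and 4 rose when mitochondrially encoded mRNAs set the scale. Pnrc2, a decapping coactivator, was left at 20.4% and Cnot10, a CCR4-NOT subunit, at 106%. Of 18 nonsense-mediated decay factors 4 fell and 6 rose, and 2 rose without replicate 2: Smg8 went from 42.9, 45.9 and 34.1 CPM to 5.08, 3.60 and 4.31 CPM (6.06% left), and Smg6, the endonuclease, rose from 103, 105.4 and 111 CPM to 255, 233 and 248 CPM, which per ERCC molecule was 134% left and did not pass.

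Tubulins and zinc finger genes were the other groups with large losses, beside the 19.2% of all genes that fell. Of 10 tubulins, 8 fell and 0 rose, with a median of 19.9% left; when mitochondrially encoded mRNAs set the scale, 5 fell. Tubb4b went from 179, 255 and 326 CPM to 48.0, 29.2 and 37.6 CPM (9.19% left) and Tuba4a from 66.4, 69.1 and 77.0 CPM to 25.8, 10.8 and 20.3 CPM (16.2% left). Tubb5, the most abundant, fell from 491, 476 and 456 CPM to 322, 223 and 220 CPM, with 32.3% left. Tubulin mRNAs are known to be degraded in a way coupled to their own translation when soluble tubulin is high. Of 276 numbered Zfp genes tested, most of them KRAB or other DNA-binding proteins, 115 fell and 8 rose (3 without replicate 4 and 20 with the replicate block), with a median of 35.9% left. Zfp260 went from 154, 149 and 110 CPM to 13.4, 18.4 and 17.9 CPM (6.65% left) and Zfp281 from 259, 316 and 217 CPM to 48.9, 47.3 and 58.5 CPM (11.2% left). Zfp638 did not pass (55.1% left). Of the 363 listed Zfp genes in the table, 87 had too few counts to be tested.

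Other regulatory groups fell in part, beside the 19.2% of all genes that fell. Of 39 genes of polymerase II, P-TEFb and elongation, 10 fell and 4 rose, and 0 rose without replicate 2. Taf7, a TFIID subunit, was left at 8.24% and Hexim1, the inhibitor of P-TEFb, at 14.3%. Of 27 heat shock chaperones and chaperonins, 10 fell and 0 rose, and 5 fell without replicate 2: Dnajb1 went from 145, 115 and 122 CPM to 26.3, 13.6 and 18.5 CPM (9.07% left), while the abundant Hspa8 did not pass (55.4% left). Of 38 SR and hnRNP splicing regulators, 6 fell and 2 rose (4 fell without replicate 2, and 0 rose without replicate 3), with Clk1, an SR protein kinase, left at 16.6% and Srsf1 at 18.7%. Of 24 cholesterol synthesis genes, 7 fell and 2 rose, and 0 rose without replicate 2; Insig1, which holds back the sterol sensor, was left at 19.5%. Of 10 polyamine and antizyme genes 2 fell and 1 rose, and 1 fell and 0 rose without replicate 2. Amd1, the S-adenosylmethionine decarboxylase, went from 87.4, 45.2 and 64.9 CPM to 5.54, 9.61 and 13.5 CPM (7.65% left).

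Ribosomal protein and tRNA synthetase mRNAs had the largest median shares left among the lists other than cell type markers. The counts of calls below stand beside 16.1% of all genes that rose and 19.2% that fell. Of 79 cytosolic ribosomal protein genes, 22 rose and 0 fell, and per ERCC molecule 4 fell and 0 rose, with a median of 81.3% left. Fau went from 232, 311 and 371 CPM to 669, 533 and 539 CPM, without overlap, and 115% was left per ERCC molecule. Rpl32, the most abundant of them, overlapped between the groups (12460, 7128 and 8319 CPM against 10500, 9878 and 15900). The count of rises was 58 with the replicate block and 3 without replicate 2 or with RLE factors, and the count of falls per ERCC molecule was 32 with the block and 0 without replicate 2. Of 37 tRNA synthetases, 15 rose and 2 fell (4 with the replicate block), with a median of 84.6% left. Sars2, the mitochondrial seryl-tRNA synthetase, was left at 160.4% and Tars2 at 118%, and per ERCC molecule 0 of the 37 rose. Of 45 translation initiation and elongation factors, 6 rose and 6 fell; 2 rose without replicate 3, and 12 rose and 11 fell with the replicate block. Eef2 rose (92.7% left), Eef1a1 did not pass (79.4% left), and Eif4a1, the RNA helicase of initiation, fell from 634, 438 and 571 CPM to 231, 222 and 246 CPM (24.2% left). Of 32 proximal T cell receptor signalling genes, 10 rose and 6 fell; without replicate 2, 5 rose. Sla, an adaptor that lowers receptor levels, was left at 14.04%, and Ptprc, the phosphatase CD45, at 72.9%. Of 16 genes of MHC class I presentation, 5 rose and 1 fell, and 0 rose without replicate 2: H2-K1 went from 2010, 2357 and 3197 CPM to 4596, 3878 and 4779 CPM (103% left).

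Nuclear genes for mitochondria were mixed, beside 19.2% of all genes that fell and 16.1% that rose. Of 77 mitochondrial ribosomal protein genes, 27 fell and 3 rose, with a median of 47.6% left. Without replicate 3, 16 fell, without replicate 2, 0 rose, with the replicate block 9 rose, and 10 fell when mitochondrially encoded mRNAs set the scale. Mrpl50 was left at 7.63% and Mrpl44 at 12.4%, while Mrpl24 and Mrpl3 did not pass (73.7 and 74.5% left). Of 36 nuclear subunits of complex I, 8 rose and 4 fell, with 3 rises without replicate 2 and 1 with DESeq2. Of 39 subunits of complexes II to V, 1 rose and 4 fell, with 14 rises with the replicate block and 2 falls without replicate 3. Uqcrb was left at 16.8% and Atp5a1 at 75.9%. Of 13 mitochondrially encoded mRNAs, 0 were called in either direction on the relative scale (edgeR; their changes had a median of -0.17), and 8 fell per ERCC molecule, with a median of 45.9% left; without replicate 2, 0 fell. Polymerase II does not make these mRNAs.

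**Figure D3:**
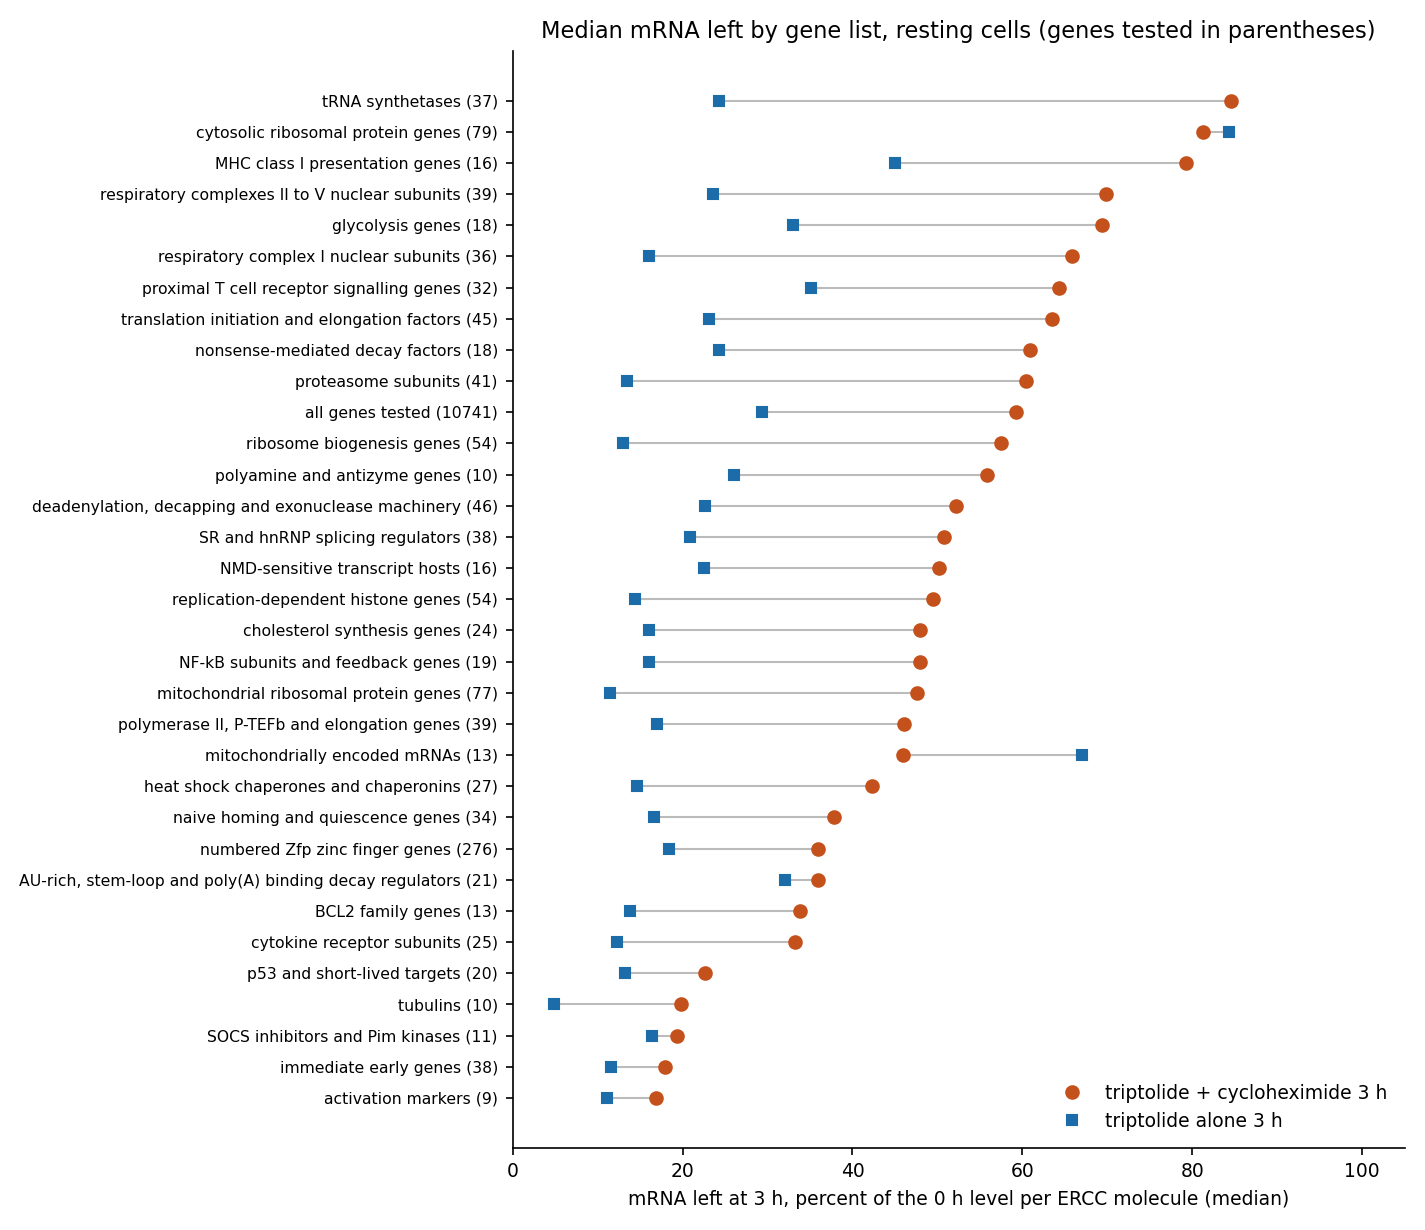
Median percent of mRNA left at 3 h per ERCC molecule for each gene list other than the markers of T cells and other blood cells, in resting cells given triptolide with cycloheximide (circles) and triptolide alone (squares), on a linear axis; numbers in parentheses are the genes tested, and both series share the 0 h libraries. With cycloheximide the medians run from 16.9% for activation markers to 84.6% for tRNA synthetases.

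The test of what the ribosome block changes is the direct comparison with triptolide alone at 3 h, which shares no 0 h library. With ribosomes blocked, mRNAs of the proteasome, ribosome biogenesis and mitochondrial ribosomes stood higher, and few immediate early mRNAs were called in either direction. On the relative scale 2020 genes (18.8%) were higher with cycloheximide and 1758 (16.4%) lower, and per ERCC molecule 4940 (46.0%) were higher and 19 (0.177%) lower. The spike-scaled fit thus called almost no gene lower when ribosomes were blocked; with the replicate block the 19 became 66, and without replicate 3 or 4 they were 4 and 8. With library size alone the relative split was 3121 higher and 567 lower, and without replicates 2, 3 and 4 in turn 1024, 846 and 982 genes were lower.

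Of the 2067 genes that fell with triptolide and cycloheximide, 390 were called higher than with triptolide alone, 323 lower, and 1354 were not called (relative scale). Per ERCC molecule 989 of them were higher and 7 lower. Among 41 proteasome subunits 33 were higher with cycloheximide and 1 lower: Psmc1, an ATPase of the base, was at 33.2, 17.6 and 18.5 CPM with cycloheximide and 13.3, 5.92 and 5.38 CPM without it. That difference was 1.64 on the log2 scale (SE 0.33, adjusted p = 6.81e-05). The median proteasome mRNA was left at 60.4% with cycloheximide and 13.5% without. Among 54 ribosome biogenesis genes 32 were higher and 0 lower, with medians of 57.4 and 12.96% left. Against 0 h, 1 proteasome and 2 ribosome biogenesis mRNAs rose with cycloheximide and 7 and 10 fell, which became 0 and 0 and 4 and 5 without replicate 2, and 6 and 6 rises with the replicate block. Among 77 mitochondrial ribosomal protein genes 32 were higher and 2 lower, with medians of 47.6 and 11.5% left. Hnrnpf, an RNA-binding splicing regulator, was at 1029, 1276 and 1356 CPM with cycloheximide and 259, 304 and 389 CPM without it, so 61.7% was left against 8.59% (log2 difference 1.94, SE 0.19). Ifngr1 differed more, at 515, 424 and 404 CPM against 109.7, 68.1 and 63.8 CPM (log2 difference 2.50, adjusted p = 9.92e-12).

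Of the lists with large losses under cycloheximide, the immediate early genes and the SOCS inhibitors and Pim kinases had few calls against triptolide alone, beside 18.8% of all genes higher and 16.4% lower. Of 38 immediate early genes 0 were higher than with triptolide alone on the relative scale and 2 lower, and per ERCC molecule 8 were higher and 0 lower. Their median was 17.97% left with cycloheximide and 11.6% without it. Of 11 SOCS inhibitors and Pim kinases 0 were higher and 1 lower, and per ERCC molecule 0 were called in either direction; the medians were 19.4 and 16.4% left, and all genes tested had 59.3 and 29.3%. Of 21 AU-rich, stem-loop and poly(A) binding decay regulators 1 was higher and 6 lower, with medians of 35.9 and 32.1% left. Of 20 genes of p53 and its short-lived targets 2 were higher and 3 lower, and per ERCC molecule 8 were higher and 0 lower. Of 10 tubulins 2 were higher and 1 lower, and per ERCC molecule 6 were higher and 0 lower, with medians of 19.9 and 4.88% left. Zfp36 was left at 11.95% with cycloheximide and 15.4% without, Zfp36l2 at 17.8 and 23.4%, and Rc3h1 at 33.5 and 48.2%; their relative differences of -1.20, -1.28 and -1.43 passed the test, and their spike-scaled ones did not (adjusted p = 0.65, 0.43 and 0.21). A p that misses the threshold does not show that the levels were alike.

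At the far end were mRNAs lower with cycloheximide than without. Among genes that fell on both scales with at least 10 CPM at 0 h, 293 were called below triptolide alone and 380 above it. Ccdc6, a coiled-coil tumour suppressor, was at 35.6, 59.9 and 47.5 CPM at 0 h, at 17.1, 20.8 and 18.5 CPM with cycloheximide, and at 61.5, 94.8 and 79.9 CPM with triptolide alone. Its libraries with cycloheximide were thus below both other groups, with 22.6 against 50.5% left and a log2 difference of -2.08 (SE 0.34, adjusted p = 1e-06; -1.16 per ERCC molecule, adjusted p = 0.02). Zfp169 was left at 22.7 against 45.8% (log2 difference -1.89, SE 0.25), and it too was called on both scales. Galnt4, a mucin-type glycosyltransferase, was left at 14.8 against 28.5%, Cfl2 at 1.55 against 6.28%, and Zbtb26 at 2.26 against 7.35%. These 3 were not called per ERCC molecule, and Cfl2 and Zbtb26 lost the relative call with coding-sequence counts. Among tubulins Tubb5 alone was called lower (322, 223 and 220 CPM against 879, 796 and 713 with triptolide alone; -1.64 on the log2 scale). In the opposite direction, Mrpl16 had 16 counts with cycloheximide and 0 with triptolide alone, at least 2.47-fold higher on a floor of 3 counts over the group, and it lost the call without replicate 4. Rrp8, a nucleolar methyltransferase, was at 24.0, 10.8 and 19.7 CPM with cycloheximide and 1.66, 1.97 and 1.54 CPM without (log2 difference 3.35, SE 0.42, adjusted p = 1.34e-09). The ratios for Mrpl55, Cyb561d2 and Ak6 had 95% intervals of 2.15 to 531, 2.47 to 81.1 and 2.28 to 75.4, on 1 to 3 counts with triptolide alone.

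Cytosolic ribosomal protein and mitochondrially encoded mRNAs were lower relative to other mRNAs with cycloheximide than with triptolide alone, in 70 of 79 and 12 of 13 genes. Per ERCC molecule 0 of 79 and 0 of 13 were called lower or higher (edgeR). The ribosomal protein mRNAs stood at medians of 81.3 and 84.3% left in these groups, and the mitochondrially encoded mRNAs at 45.9 and 67.1%. The relative calls for the ribosomal proteins therefore went with a median spike-scaled difference of -0.02 on the log2 scale, beside 0.86 over all genes.

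mRNAs with few exons were lost more. Among 7886 genes with an annotated coding transcript and at least 10 CPM on average, the median percent left rose from 22.3% for 250 genes with 2 exons to 33.5% for 3 exons, 44.5% for 4 to 5, 60.7% for 9 to 12, and 79.3% for 1209 genes with 21 or more. Single-exon genes, of which there were 152, had 29.4% left. Of the genes with 2 exons 74.4% fell, and of those with 21 or more 3.80% fell and 40.2% rose, against 21.4% and 18.1% of these 7886 genes. Spearman's rho between exon number and the relative change was 0.468 across these genes, which share libraries and are not independent. The genes with few exons were also lower in level and shorter, with a median of 32.5 CPM at 2 exons and 111 CPM at 21 or more. Within coding lengths of 1000 to under 2000 bases the median log2 change still ran from -1.38 for 243 genes with 1 to 3 exons to 0.28 for 878 genes with 13 or more. With triptolide alone, sharing the 0 h libraries, rho was 0.447, with harringtonine 0.483, at 1 h with cycloheximide 0.496, in activated cells with cycloheximide 0.337, and over 3 h without inhibitors, in libraries of their own, 0.039.

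**Figure D4:**
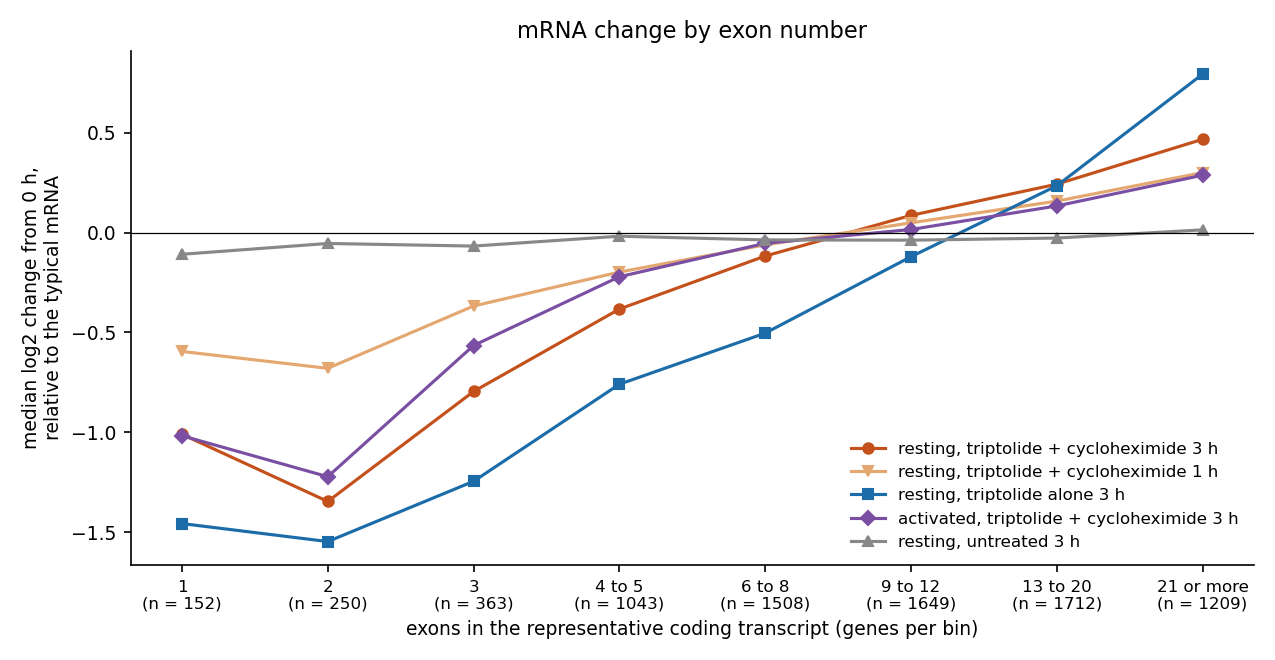
Median relative log2 change from 0 h by number of annotated exons, with the genes in each bin under the axis and 1 line for each treatment in the key; lines of triptolide-treated resting cells share the 0 h libraries. With triptolide and cycloheximide at 3 h in resting cells the medians run from -1.35 at 2 exons to 0.47 at 21 or more. A value of 0 is the typical mRNA.

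Longer 3′ UTRs went with more loss under cycloheximide. The median percent left was 67.8% for 2238 genes with a 3′ UTR under 500 bases and 50.3% for 1166 genes with 3000 bases or more. With triptolide alone the median was 27.0% under 500 bases, 26.3% at 500 to under 1000 and 27.3% at 1000 to under 2000. It was 28.4% at 2000 to under 3000 bases and 34.1% at 3000 or more, so mainly the longest stood higher. Spearman's rho across the 7886 genes was -0.190 with cycloheximide, 0.058 with triptolide alone, and -0.257 for the direct difference between them. The nonamer TTATTTATT, a consensus of AU-rich elements read on the sense strand only, was present in the 3′ UTR of 609 genes (7.72%). It was in 11.3% of the 1686 genes of this set that fell, in 5.25% of the 1429 that rose, and in 17.5% of the 291 that fell and were called below triptolide alone. Among 1556 genes that were lower with triptolide alone and higher with cycloheximide, 4.18% held it. The length of the 3′ UTR moved with these shares: its median was 2516 bases in the 291 genes, 749.5 in the 1556, and 1063 over all 7886. Its part in these shares was not tested. The median log2 change was -0.15 with the nonamer and 0.07 without it, and within 3′ UTRs of 1000 to under 2000 bases it was -0.16 for 144 genes and 0.02 for 1739. With triptolide alone the medians in this length range were -0.33 with the nonamer and -0.13 without it, from the same 0 h libraries. Those of the direct difference between the treatments were -0.14 and 0.03. A match is a run of letters in the annotated transcript and not a bound site.

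The nonamers are printed for 3 of the 14 genes with the largest falls, for the feedback regulator Nfkbia and the kinase gene Pim1, which also fell, and for 3 genes that did not fall: Psmb1, a proteasome subunit (68.1% left), and Mrpl3, of the mitochondrial ribosome (74.5% left), did not pass, and Ust, a sulfotransferase, rose (256% left). Each run is 25 bases of the 3′ UTR in mm10, written 5′ to 3′ on the strand of the gene with T for U, and the capitals mark the nonamer. Pim1 holds 3 overlapping copies, of which the first is in capitals.
Cfl2, chr12:54860039-54860063, minus strand: ccagtatcTTATTTATTctctagat
Chchd4, chr6:91464021-91464045, minus strand: tttaagatTTATTTATTtttttatg
Med18, chr4:132458829-132458853, minus strand: ttattcctTTATTTATTtgttgttt
Nfkbia, chr12:55489610-55489634, minus strand: accacgttTTATTTATTgtgctttt
Pim1, chr17:29495691-29495715, plus strand: taatgtatTTATTTATTtatttatt
Psmb1, chr17:15475675-15475699, minus strand: ggatatatTTATTTATTttgagatt
Mrpl3, chr9:105078303-105078327, plus strand: tatttattTTATTTATTtaaggcct
Ust, chr10:8205132-8205156, minus strand: tccttgccTTATTTATTataacctt
The 5 genes that fell were left at 1.55% (Cfl2) to 13.2% (Pim1), and the bases beside the nonamer differed between them.

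Few mRNAs differed between the translation inhibitors. Between triptolide with cycloheximide and triptolide with harringtonine at 3 h, 214 genes (1.99%) were higher with cycloheximide and 19 (0.177%) lower. With the replicate block these became 528 and 148, and without each of the replicates 2, 3 and 4 in turn 75, 75 and 108 were higher and 5, 3 and 5 lower; with library size alone 383 were higher. None of the 38 immediate early genes and none of the 54 ribosome biogenesis genes was called between the inhibitors (edgeR, 0 of each in either direction), with median log2 differences of -0.05 and -0.03, beside -0.05 over all genes. Of the 10 tubulins 2 were lower with cycloheximide than with harringtonine. Cfl2 was left at 1.55% with cycloheximide and 2.92% with harringtonine, and Ccr7 at 5.74 and 3.61%.

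After 1 h of triptolide with cycloheximide few mRNAs had fallen per ERCC molecule, and more had on the relative scale. Per ERCC molecule 289 genes (2.69%) fell and 73 (0.680%) rose, and the median gene was at 99.5%. The count is unstable: with the replicate block 735 fell and 233 rose, and without replicates 2, 3 and 4 in turn 182, 15 and 152 fell and 38, 14 and 6 rose. On the relative scale 619 of 10741 genes fell at 1 h and 348 rose, counts that were not run under the alternatives. Of the 38 immediate early genes 15 fell and 0 rose at 1 h on that scale. The immediate early genes had a median of 53.5% left at 1 h and 17.97% at 3 h. Btg2 was left at 24.4% at 1 h and 5.72% at 3 h, Ccr7 at 48.0 and 5.74%, Cfl2 at 9.20 and 1.55%, Socs6 at 22.7 and 6.04%, and Amd1 at 28.7 and 7.65%. Rps9 stood at 133 and 110.5%, and Psmb1 at 104.9 and 68.1%. The 1 h libraries share the 0 h libraries with those at 3 h.

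The loss was also set beside that in activated cells given the same treatment. Exon counts per ERCC count were at 58.9% of the activated 0 h level, beside 62.4% in resting cells. The change itself was compared between the states: 13 of 10741 genes (0.121%) had a higher change in resting cells and 51 (0.475%) a lower one, and 1274 were at an unadjusted p under 0.05. Lyrm2, a mitochondrial LYR motif protein, had a log2 change of -0.77 in resting and 2.11 in activated cells. Lfng, a Fringe glycosyltransferase that modifies Notch, fell from 481, 637 and 564 CPM to 133, 56.1 and 94.8 CPM in resting cells, and it was at 156, 350 and 283 CPM and then 137, 320.0 and 163 CPM in activated cells. The resting libraries of Lfng did not overlap, and the activated ones did. These counts fell when any replicate was left out: without replicate 2, 0 were higher and 1 lower, without replicates 3 and 4 they were 4 and 18 and 5 and 22, and with the replicate block they were 297 and 384.

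The rises per ERCC molecule were few, and the largest were in genes that were nearly silent at 0 h. Acot12, a liver acetyl-CoA hydrolase, had 0 counts at 0 h and was at 11.1, 20.8 and 11.7 CPM at 3 h, at least 42.9-fold higher on a floor of 3 counts over the 0 h group. Mc5r, a melanocortin receptor, was at least 40.6-fold higher, Tex13c2 at least 34.3-fold, and Nek10, a kinase, at least 28.9-fold, all from 0 counts. Foxi1, a forkhead factor, went from 0.405, 0.655 and 0 CPM to 20.3, 82.5 and 76.3 CPM, a ratio of 169 (95% interval 57.3 to 822). Slc2a2, the glucose transporter GLUT2, had a ratio of 81.9 (22.2 to 684) and Gsdmc4, a gasdermin, one of 62.3 (16.8 to 522). Cyp2e1, a liver cytochrome P450, went from 0.405, 1.31 and 2.68 CPM to 81.2, 77.7 and 124 CPM. These proteins are not known for a role in T cells. The 8 were chosen for size among genes whose groups did not overlap, with at least 10 CPM in either group, so a low level at 0 h is partly fixed by the choice. In 6 of the 8 intron counts could be tested, and all 6 rose, by 4.85 (Nek10) to 7.98 (Acot12) on the log2 scale. With triptolide alone the genes were also high, for example Foxi1 at 125, 290 and 219 CPM and Acot12 at 23.3, 65.1 and 49.2 CPM. An expressed gene on the same strand ended upstream of each, at distances from 3475 bases (Slc4a7 before Nek10) to 463003 bases (5830411N06Rik before Cyp2e1). For Foxi1 it was Dock2, at 18726 bases. A gene can have such a neighbour at some distance whatever the source of its reads, and no other genes were set beside these 8. Whether the reads of the 8 come from the genes' own promoters was not tested.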

How the data were processed

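The deposited table holds read counts per gene over exons, coding sequence and introns and per ERCC RNA, unscaled, in 105 libraries of 35 groups; it lists 22322 genes, of which 22124 have a symbol, beside 92 ERCC RNAs. Per the submitters' processing notes, the authors used TopHat2 2.0.13, Bowtie 1.1.1.0 and HTSeq on mm10; strand settings are not given in the sources used here, so overlapping and antisense genes cannot be separated, and neither can near-identical copies such as tubulins, histones and ribosomal protein pseudogenes. Replicates are biological per the labels; where libraries share a source, p-values measure the spread between libraries.

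All 105 libraries were fitted as 35 group means with edgeR 4.0.16 (R 4.3.3; filterByExpr, 10741 genes, robust quasi-likelihood F test), and each comparison is a contrast. TMM factors give the relative scale, and library sizes set from summed ERCC counts give the scale per ERCC molecule (spike-scaled), where percent left is 100 times the fold. Intron counts were fitted on the second scale (10750 genes). A call needs a p under 0.05 after Benjamini-Hochberg adjustment over all genes. CPM use TMM-scaled exon counts. Totals per ERCC count were compared by exact permutation. Intervals (95%, binomial) and floors (3 counts) cover counting error only. Transcript features are from GENCODE vM21 on mm10, with the exons, 3′ UTR and coding length of 1 coding transcript a gene.

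The replicate numbers pair the libraries: after removal of group means, same-numbered 0 h and 3 h libraries correlated at 0.115, 0.174 and 0.153 across genes, and other pairs at -0.109 to -0.035. No 2 of the 6 libraries agreed within sampling noise. On simulated counts of 10741 genes, the comparison of 3 h with 0 h recovered 49 of 100 planted 2-fold and 88 of 100 planted 4-fold changes with 5 false calls, the one with triptolide alone 46 and 79 with 7, and the difference between cell states 19 and 70 with 3. The planted changes were as often up as down, the other genes were left unchanged, and libraries were drawn without the pairing by replicate number. The real libraries differ in these respects, so the rates may not hold for them.

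The comparison, the 38 gene lists and the tests were chosen with earlier results of these data known. Genes are named by rule: the 14 largest falls called on both scales and 8 largest rises, with at least 10 CPM in a group and no overlap; 5 falls called most above and 5 most below triptolide alone; 4 differences between cell states in each direction; and from each list 2 members by smallest p plus 2 by abundance. Genes marked as singled out were chosen after their values were seen. Alternatives were RLE factors, library size alone, ERCC scaling, scaling on mitochondrially encoded mRNAs, DESeq2 1.42.0, no filter or a 10 CPM minimum, coding-sequence counts, fits on the compared libraries alone, the replicate block, each replicate left out of the compared groups, harringtonine in place of cycloheximide, and, chosen after seeing the data, removal of the 2 shallowest libraries of the series. Some items withheld for evaluation are not reported here.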

Additional observations from a re-analysis of the deposited data

Results flagged for a closer look

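The change at 3 h with triptolide and cycloheximide differed between resting and activated cells for 8 genes chosen by size, each by a test of the difference itself (edgeR, adjusted p under 0.05). In 4 the resting change was the lower. Lyrm2, a mitochondrial LYR motif protein, differed by -2.88 on the log2 scale (SE 0.50, adjusted p = 0.000412): it was at 13.8, 10.8 and 9.37 CPM and then 4.15, 7.21 and 8.62 CPM in resting cells, and at 3.26, 3.39 and 6.48 CPM and then 22.1, 12.2 and 20.3 CPM in activated cells. Its groups were apart in both states, in opposite directions. Mphosph6, an exosome cofactor of ribosomal RNA processing, differed by -2.75: its resting level went from 14.2, 12.4 and 7.03 CPM to 2.77, 0.801 and 1.23 CPM, and its activated level was 6.51 to 8.22 CPM and then 6.41 to 8.48 CPM. Galnt4 differed by -2.46, with resting levels of 35.6, 36.4 and 23.1 CPM and then 6.46, 12.01 and 6.77 CPM, and activated levels of 9.23 to 15.96 CPM and then 8.98 to 29.7 CPM. Lfng differed by -2.21.

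In the other 4 the resting change was the higher. Ust, a uronyl sulfotransferase, differed by 1.85: it rose in resting cells from 15.0, 27.8 and 30.8 CPM to 76.6, 159 and 107 CPM, and was at 65.7 to 89.4 CPM and then 78.9 to 116 CPM in activated cells. Mtg2, a mitochondrial GTPase, differed by 1.5, Tmco4, a membrane protein, by 1.37, and Adrm1, the ubiquitin receptor of the proteasome, by 1.27. Tmco4 rose in resting cells from 35.2, 48.1 and 50.5 CPM to 116, 76.1 and 91.1 CPM. Mtg2 and Adrm1 fell in activated cells, by 1.13 and 1.11 on the log2 scale, and did not pass in resting cells, where Mtg2 and Adrm1 overlapped between 0 h and 3 h. None of the 8 passed without replicate 2, and per ERCC molecule Lyrm2 alone of the 8 passed (adjusted p = 0.0063).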

How the results depend on the processing

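The 14 largest falls and the 8 largest rises kept their direction and call under the 14 alternatives run for the relative comparison with 0 h, where 1 rise could not be tested with coding-sequence counts. Zc3h12a, which rose by 1.68 on the log2 scale, was at -1.24 with coding-sequence counts. Counts of genes moved more. For triptolide with cycloheximide at 3 h against 0 h, relative, 1726 higher became 1059 with DESeq2, 1144 with RLE factors, 2614 with the replicate block, and 1003 to 1417 without 1 replicate; 2067 lower became 1088 with scaling on mitochondrially encoded mRNAs and 1450 to 1758 without 1 replicate. Per ERCC molecule, 166 higher became 85 with a 10 CPM minimum, 94 with coding-sequence counts and 97 to 116 without 1 replicate, and 4757 lower became 3040 to 4698. Against triptolide alone, relative, 2020 higher became 3121 with library size alone and 4940 with ERCC scaling, and 1478 to 1658 without 1 replicate; 1758 lower became 567, 19, and 846 to 1024. Per ERCC molecule, 19 lower became 66 with the replicate block and 4 to 13 without 1 replicate. Against harringtonine, 214 higher became 383 with library size alone, 528 with the replicate block and 75 to 108 without 1 replicate; 19 lower became 11 with library size alone, 11 with RLE factors, 148 with the block, and 3 to 5. Between cell states, 13 higher became 21 with DESeq2, 297 with the block and 0 to 5 without 1 replicate; 51 lower became 384 and 1 to 22. At 1 h, 73 higher became 233 with the block and 6 to 38 without 1 replicate, and 289 lower became 735 and 15 to 182. The cause of these shifts was not tested; leaving out a replicate also removes libraries. The share of exon counts left ran from 58.5 to 66.1% without 1 replicate and was 65.6% by coding-sequence counts. The replicate block moved no other of these counts by over 1.5 times. Depth limits the low genes: with 3 libraries a group, planted 2-fold changes were recovered in 19 to 49 of 100 genes, so an uncalled gene is not shown to be stable.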

Other observations

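Replication-dependent histone mRNAs end in a stem-loop in place of a poly(A) tail. With triptolide and cycloheximide 5 of 54 fell and 0 rose, below the 19.2% of all genes that fell, and 0 fell without replicate 3. Their median was 49.5% left, beside 59.3% over all genes. Hist1h1e went from 38.9, 58.6 and 13.1 CPM to 14.3, 9.21 and 11.7 CPM, so the lowest 0 h library lay within the 3 h range. With triptolide alone the median histone mRNA was at 14.5% of the same 0 h libraries. With cycloheximide alone, against untreated 0 h cells, the median was 514% per ERCC molecule, beside 178% for the median gene. These contrasts have different controls, and the difference between them was not tested.

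Several mRNAs with little left after triptolide and cycloheximide stood above the untreated 0 h level after cycloheximide alone. Per ERCC molecule Ccr7 was at 309%, Btg2 at 299%, Klf6 at 326%, Tnfaip3 at 346% and Mcl1 at 197%, and Socs6, at 131%, lay under the median gene. In untreated cells kept for 3 h Ccr7 was at 48.5%, Btg2 at 88.1%, Klf6 at 64.2% and Tnfaip3 at 42.0%. The immediate early genes had a median of 243% with cycloheximide alone and 57.6% in untreated cells. Among 18 glycolysis genes 2 rose and 2 fell with triptolide and cycloheximide (1 rose without replicate 2, and 4 with the block): Pkm, a pyruvate kinase, rose on the relative scale (109% left per ERCC molecule) and Slc2a1, the glucose transporter GLUT1, fell (22.1% left). Of 16 tested hosts of transcripts known to be sensitive to nonsense-mediated decay, 4 fell and 1 rose; 0 fell without replicate 3, and 0 rose without replicate 2 and 4 with the replicate block. Atf4, a stress-response transcription factor, was left at 32.2%. Over all genes 19.2% fell and 16.1% rose with triptolide and cycloheximide.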
